A study of Homo sapiens with 6 samples.

Results

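The genes described here are the receptors for lysophosphatidic acid (LPA) and sphingosine-1-phosphate (S1P) that the count table lists under the symbols LPAR1, LPAR2, LPAR3, LPAR5, LPAR6, S1PR1, S1PR2 and S1PR3, together with ENPP2, which encodes autotaxin, and SPHK1, which encodes sphingosine kinase 1. They are 10 of the 34811 genes in the table and were chosen by symbol alone, without regard to their counts. RNA-seq was performed on OVCAR-3, an established cell line of human high-grade serous ovarian cancer. OV3/SCR cells carried a scrambled shRNA in the HuSH-29 pRS plasmid and kept wild-type COX-1, and OV3/COX1KD cells carried an shRNA against COX-1 in the same plasmid. Both were stable clones selected with puromycin and grown in RPMI-1640 with fetal bovine serum, and each condition had 3 libraries from independent passages. Because each condition was 1 clone, knockdown and clone cannot be told apart in any comparison, and p-values measure the spread between passages of a clone.

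LPA and S1P are lysophospholipids that signal outside the cell through G protein-coupled receptors. Autotaxin is a secreted enzyme that makes LPA from lysophosphatidylcholine, and sphingosine kinases phosphorylate sphingosine to S1P inside the cell. LPAR1, LPAR2 and LPAR3 belong with the S1P receptors to the EDG family, whereas LPAR5 and LPAR6 are closer in sequence to the P2Y purine receptors. Between them the receptors use the Gi, Gq and GNA12/GNA13 classes of G protein. LPA is known to be abundant in the ascites of patients with ovarian cancer.

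Library totals lay between 25291505 and 27391538 counts, and a floor of 3 counts corresponded to between 0.113 and 0.120 CPM (TMM-scaled counts relative to the library total). PTGS1, the gene of COX-1, had 713, 658 and 641 counts in OV3/SCR and 456, 486 and 501 in OV3/COX1KD, and its level in OV3/COX1KD was 73.3% of that in OV3/SCR (log2 fold change -0.45, SE 0.057, edgeR FDR 1.3e-06). A gene was called changed at an FDR below 0.01 in edgeR's quasi-likelihood test over 17309 genes. By that rule 47.9% of all tested genes were called, 25.8% higher and 22.1% lower in OV3/COX1KD, so that a call by itself was common. With a fold change over 2.5 added, 3.92% were called, 2.34% in the lower direction. The split by direction depended on the scaling, with 4473 genes higher and 3820 lower under TMM and 3466 higher and 4978 lower when libraries were scaled by their totals alone.

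Of the 10 genes, 8 had enough counts to be tested. LPAR1 and LPAR3 were higher in OV3/COX1KD, ENPP2 and SPHK1 were lower, and LPAR2, S1PR1, S1PR2 and S1PR3 did not pass the test. Those 2 higher and 2 lower of 8 stand beside 25.8% and 22.1% of all tested genes. The libraries of the conditions did not overlap for the same 4 genes, against 63.2% of all tested genes. ENPP2 alone among them passed the 2.5-fold limit. In bulk RNA, fewer cells expressing a gene and less of its RNA per cell cannot be told apart, which holds for each level below.

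The promoter windows of LPAR3, the most abundant LPA receptor, and of SPHK1 are shown because these genes moved in opposite directions. They are RefSeq windows of 250 bases before to 50 bases after an annotated start, placed on GRCh37 by exact match and read 5′ to 3′ on the strand of the gene. Capitals mark matches to any of 4 motifs searched on both strands, the CRE TGACGTCA, the AP-1 site TGANTCA, the GC box GGGCGG and the TEAD site GGAATG. The LPAR3 window lies at chr1:85358840-85359139 on the minus strand and the SPHK1 window, the first of 3 for that gene, at chr17:74379035-74379334 on the plus strand.
LPAR3: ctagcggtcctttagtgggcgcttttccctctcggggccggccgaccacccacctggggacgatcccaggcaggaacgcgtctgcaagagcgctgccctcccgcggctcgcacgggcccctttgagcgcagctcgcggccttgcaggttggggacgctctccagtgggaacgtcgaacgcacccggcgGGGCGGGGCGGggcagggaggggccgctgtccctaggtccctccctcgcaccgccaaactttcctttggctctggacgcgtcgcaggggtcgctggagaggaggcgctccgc
SPHK1: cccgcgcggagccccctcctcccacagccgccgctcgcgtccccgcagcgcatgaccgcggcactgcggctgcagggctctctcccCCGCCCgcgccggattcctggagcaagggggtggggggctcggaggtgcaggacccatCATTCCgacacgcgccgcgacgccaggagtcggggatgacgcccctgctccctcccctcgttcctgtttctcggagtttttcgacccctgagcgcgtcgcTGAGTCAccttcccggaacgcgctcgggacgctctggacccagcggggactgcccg
The LPAR3 window was 71.3% G and C and held 2 overlapping GC boxes and no other motif. The SPHK1 window was 72.7% G and C and held 1 GC box, 1 TEAD match and 1 AP-1 match. Its other windows differed, with 2 GC boxes and no other motif in the second, and 1 AP-1 match and no other motif in the third. Across the 9 genes with windows analysed here, 17 windows in all, the AP-1 letters were found in 3, 1 of LPAR2 and 2 of SPHK1, against 7.71% of 35116 windows of all genes. The CRE letters were found in 1, that of S1PR2 at chr19:10341958-10342257, against 1.85% of all windows. GC boxes were in 11 of the 17, against 45% of all windows, and the TEAD letters in 2, against 14%. LPAR1 alone has 6 of the 17 windows, some of which overlap in position, and SPHK1 has 3. The windows are therefore not independent, and these shares lean on genes with many annotated starts. Such matches describe the letters of a window and not the binding of a factor. Their part in the direction of LPAR3 or SPHK1 was not tested.

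LPAR3 (ENSG00000171517, chr1:85277285-85358889, minus strand) encodes a receptor coupled to Gq and Gi that prefers LPA species with unsaturated acyl chains. It had 657, 693 and 727 counts in OV3/SCR and 1018, 965 and 1127 in OV3/COX1KD. The lowest OV3/COX1KD count exceeded the highest OV3/SCR count. The level rose from 26.5 ± 1.74 to 40.4 ± 1.90 CPM (mean ± SD, n = 3 each), a 1.53-fold difference (log2 fold change 0.61, SE 0.055, 95% confidence interval 0.50 to 0.73, edgeR FDR 1.1e-08).

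LPAR1 (ENSG00000198121, chr9:113635543-113800750, minus strand), the most widely expressed LPA receptor and one that couples to the Gi, Gq and GNA12/GNA13 classes, had the lowest level of the EDG-family LPA receptors. Its counts were 74, 71 and 60 in OV3/SCR and 108, 100 and 119 in OV3/COX1KD, again without overlap. The level rose 1.63-fold, from 2.61 ± 0.249 to 4.25 ± 0.241 CPM (log2 fold change 0.70, SE 0.13, 95% confidence interval 0.42 to 0.99, edgeR FDR 1.6e-04).

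LPAR2 (ENSG00000064547, chr19:19734464-19739739, minus strand), the remaining EDG-family LPA receptor, had 133, 127 and 140 counts in OV3/SCR and 122, 155 and 141 in OV3/COX1KD. The OV3/COX1KD libraries lay on both sides of the OV3/SCR libraries. The log2 fold change was 0.095 with a 95% confidence interval from -0.15 to 0.34 (edgeR FDR 0.499), so that a difference as large as that of LPAR1 or LPAR3 lay outside the interval. LPAR5 and LPAR6 were near the floor in both conditions. LPAR5 (ENSG00000184574, chr12:6728001-6745126, minus strand) had 2, 4 and 2 counts in OV3/SCR and 3, 3 and 5 in OV3/COX1KD. LPAR6 (ENSG00000139679, chr13:48963703-49018840, minus strand), which couples to GNA12/GNA13, had 6, 1 and 7 and then 3, 4 and 3 counts. Neither was tested, and no difference was detectable at this depth. LPAR6 lies within the body of RB1 on the opposite strand and shares no exon base with it. The library kit appears not to mark strand, and in that case its few reads cannot be told from unspliced RB1 RNA.

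**Figure D1:**
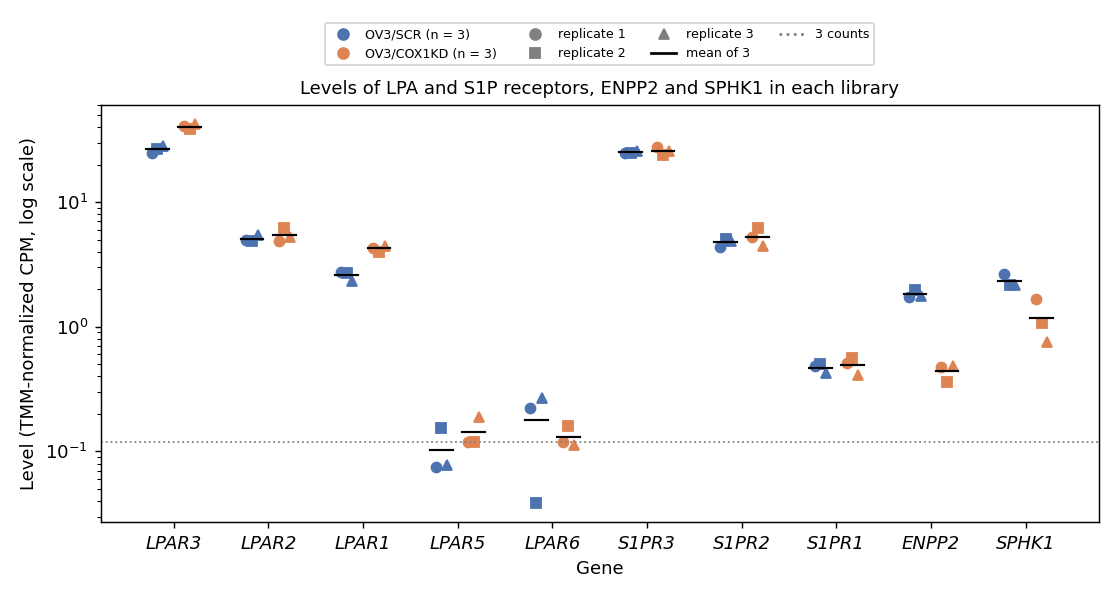
Level of each of the 10 genes in each library, in CPM after TMM scaling on a log axis, with OV3/SCR and OV3/COX1KD side by side (n = 3 each), a bar at the mean and a dotted line at 3 counts. LPAR3 and LPAR1 sit higher and ENPP2 and SPHK1 lower in every OV3/COX1KD library, and LPAR5 and LPAR6 sit around the line of 3 counts.

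Among S1P receptors, S1PR3 (ENSG00000213694, chr9:91605778-91620070, plus strand) couples to all 3 of the classes Gi, Gq and GNA12/GNA13. It had 666, 651 and 666 counts in OV3/SCR and 697, 595 and 688 in OV3/COX1KD. The conditions overlapped, at 25.2 ± 0.450 and 25.8 ± 1.98 CPM (n = 3 each). The log2 fold change was 0.029 with a 95% confidence interval from -0.093 to 0.15 (edgeR FDR 0.691), the narrowest interval among the receptors that did not pass. S1PR1 (ENSG00000170989, chr1:101702421-101709269, plus strand), which signals through Gi and controls the exit of lymphocytes from lymphoid organs, was scarce. Its counts were 13, 13 and 11 in OV3/SCR and 13, 14 and 11 in OV3/COX1KD. At this depth the 95% confidence interval of its log2 fold change, from -0.60 to 0.74, was wide (edgeR FDR 0.868).

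S1PR2, the S1P receptor that acts mainly through GNA12/GNA13, was split over 2 rows of the table, so its counts are uncertain. The row that carries the symbol (ENSG00000175898) had 117, 131 and 125 counts in OV3/SCR and 132, 154 and 119 in OV3/COX1KD, which overlapped (log2 fold change 0.15, SE 0.125, edgeR FDR 0.314). A row without a symbol (ENSG00000267534, chr19:10332109-10342007, minus strand), which GENCODE 44 names S1PR2, had 48, 54 and 45 counts in OV3/SCR and 66, 56 and 81 in OV3/COX1KD. These did not overlap, and the log2 fold change of 0.49 (SE 0.17) missed the threshold with an edgeR FDR of 0.0191. Their sum, an alternative added after the data were seen, gave a log2 fold change of 0.26 with an edgeR FDR of 0.0248. The GENCODE entry shares 2.28% of its exon length with DNMT1 on the same strand.

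ENPP2 (ENSG00000136960, chr8:120569326-120685693, minus strand), the LPA-producing enzyme autotaxin, showed the largest difference of the 10 genes. It had 46, 51 and 46 counts in OV3/SCR and 12, 9 and 13 in OV3/COX1KD, and the conditions were far apart. The level fell 4.13-fold, from 1.82 ± 0.121 to 0.441 ± 0.0714 CPM (n = 3 each), to 24.2% of that in OV3/SCR (log2 fold change -2.03, SE 0.25, 95% confidence interval -2.55 to -1.51, edgeR FDR 7.3e-07). The OV3/COX1KD libraries were still above 3 counts.

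Over the 6 libraries, the profile most like that of ENPP2 was that of VEGFC, a growth factor for lymphatic vessels (root mean square difference of centred log2 CPM 0.0778 among 17308 other genes). It was followed by KRT6A, a keratin of stratified and stressed epithelia (0.0900). Their log2 fold changes were -1.90 (edgeR FDR 1.4e-09) and -1.93 (edgeR FDR 4.3e-17). With 2 conditions of 3 libraries, such likeness is mainly a like fold change.

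SPHK1 (ENSG00000176170, chr17:74372665-74383941, plus strand), one of the kinases that produce S1P, had 71, 56 and 56 counts in OV3/SCR and 42, 27 and 20 in OV3/COX1KD. Every OV3/COX1KD library was lower, with more spread between passages than for ENPP2. The level fell from 2.33 ± 0.292 to 1.17 ± 0.465 CPM (n = 3 each), to 50.1% of that in OV3/SCR (log2 fold change -1.0, SE 0.23, 95% confidence interval -1.49 to -0.52, edgeR FDR 9.3e-04). Its size rested in part on single libraries, with -0.76 without OV3/COX1KD replicate 3 and -1.35 without replicate 1. PRPSAP1 on the opposite strand shares 1.34% of the SPHK1 exon length. SPHK2, the other sphingosine kinase, fell by less, from 14.5 to 11.8 CPM (log2 fold change -0.30, edgeR FDR 0.0017).

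**Figure D2:**
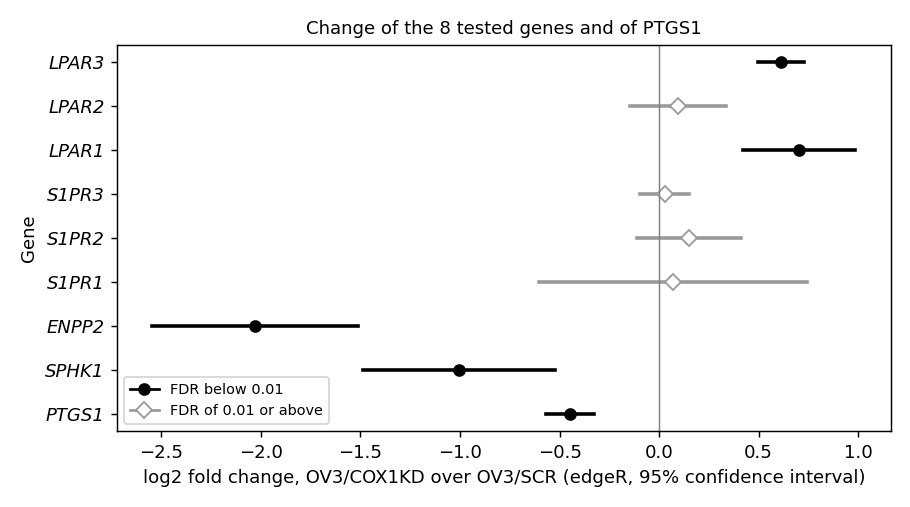
Log2 fold change of OV3/COX1KD over OV3/SCR with its 95% confidence interval for the 8 tested genes and for PTGS1 (n = 3 libraries per condition, edgeR), with filled points for an FDR below 0.01. The LPAR1 and LPAR3 intervals lie above 0, those of ENPP2, SPHK1 and PTGS1 lie below 0, and the intervals of LPAR2, S1PR1, S1PR2 and S1PR3 include 0.

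To compare genes with each other, CPM was divided by the merged exon length in kilobases. On this scale LPAR3 was first in OV3/SCR, at 7.48 ± 0.493 CPM per kilobase, followed by S1PR3 at 1.84 ± 0.0329, LPAR2 at 1.71 ± 0.0960 and S1PR2 at 1.30 ± 0.0899. LPAR1 at 0.630 ± 0.0602 and SPHK1 at 0.527 ± 0.0662 overlapped between libraries. ENPP2 at 0.271 ± 0.0180 and S1PR1 at 0.0901 ± 0.00757 followed, and LPAR6 and LPAR5 were last and overlapped. No other neighbours in that order overlapped. The order depends on the length taken. Merged exons and longest transcript were 4416 and 2502 bases for SPHK1, but 4137 and 3818 for LPAR1. For S1PR2 the length was that of the GENCODE entry named above, with the counts of the row that carries the symbol.

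Ranks 1 to 6 held the same genes in OV3/COX1KD, ENPP2 and S1PR1 changed places, and so did LPAR6 and LPAR5, which were near the floor. LPAR3 was again first, at 11.4 ± 0.536 CPM per kilobase, and S1PR3, LPAR2 and S1PR2 overlapped in turn at 1.88 ± 0.144, 1.83 ± 0.229 and 1.45 ± 0.231. LPAR1 at 1.03 ± 0.0582 was now clear of SPHK1 at 0.264 ± 0.105. S1PR1 at 0.0950 ± 0.0144 stood above ENPP2 at 0.0656 ± 0.0106, whose libraries overlapped those of the near-silent LPAR5 on this scale. That overlap depends on the length taken, with 6729 merged bases and a longest transcript of 3647 for ENPP2, and 2771 and 2695 for LPAR5. In counts, ENPP2 had 12, 9 and 13 and LPAR5 had 3, 3 and 5 in OV3/COX1KD.

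Summed over the 5 LPA receptors, the level per kilobase was 9.40, 9.88 and 10.4 CPM in OV3/SCR and 14.2, 14.0 and 14.9 in OV3/COX1KD. The groups did not overlap, and the sum was 1.45-fold higher in OV3/COX1KD (two-sided exact permutation test p = 0.1, the smallest that 3 against 3 allows). Of that sum, LPAR3 held 75.5 ± 1.17% in OV3/SCR and 79.5 ± 1.60% in OV3/COX1KD (n = 3 each, exact permutation p = 0.1). LPAR2 held 17.3 ± 0.651% and 12.8 ± 1.82% (n = 3 each, exact permutation p = 0.1), and LPAR1 held 6.40 ± 0.910% and 7.15 ± 0.231% (n = 3 each, exact permutation p = 0.2). LPAR2 thus took a smaller share in each OV3/COX1KD library while its own level did not pass the test.

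The summed level of the 3 S1P receptors was 3.12, 3.30 and 3.29 CPM per kilobase in OV3/SCR and 3.56, 3.53 and 3.19 in OV3/COX1KD, and the groups overlapped (exact permutation p = 0.3). S1PR3 held 57.0 ± 1.58% of it in OV3/SCR and 55.0 ± 5.21% in OV3/COX1KD (n = 3 each, exact permutation p = 0.8). S1PR2 held 40.3 ± 1.62% and 42.2 ± 4.95%, and S1PR1 2.79 ± 0.273% and 2.76 ± 0.278% (n = 3 each, exact permutation p = 0.8 and 1). These values depended on the row or rows taken for S1PR2 and on the exon length. They also leave out S1PR5, a further S1P receptor of 2803 merged bases at 3.88 CPM in OV3/SCR and 4.99 in OV3/COX1KD. Its conditions did not overlap, and its level was near that of the S1PR2 row, at 4.75 and 5.29 CPM. With S1PR5 the sum would be larger and each share smaller, and no sum with it was computed. With both S1PR2 rows counted, an alternative added after the data were seen, the sum was 3.62, 3.87 and 3.77 CPM per kilobase in OV3/SCR and 4.28, 4.14 and 4.02 in OV3/COX1KD. These groups did not overlap, at 1.11-fold (exact permutation p = 0.1, the smallest possible). S1PR3 then held 49.2% in OV3/SCR and 45.3% in OV3/COX1KD, and S1PR2 held 48.4 ± 1.76% and 52.4 ± 2.76% (n = 3 each, exact permutation p = 0.1). At merged exon lengths, the leading receptor of the 3 in OV3/COX1KD thus turned from S1PR3 to S1PR2. On that count S1PR2, at 1.82 ± 0.125 CPM per kilobase in OV3/SCR and 2.17 ± 0.120 in OV3/COX1KD, ranked by its mean above LPAR2 in both conditions and above S1PR3 in OV3/COX1KD. With the longest transcript as length and the S1PR2 row that carries the symbol, the share of S1PR3 in OV3/SCR was 66.8%. Merged exons and longest transcript were 13702 and 8505 bases for S1PR3, but 3643 and 3643 for S1PR2. Both S1PR2 rows with the longest transcript as length were not analysed, so the lead of S1PR2 holds for merged exon lengths only.

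**Figure D3:**
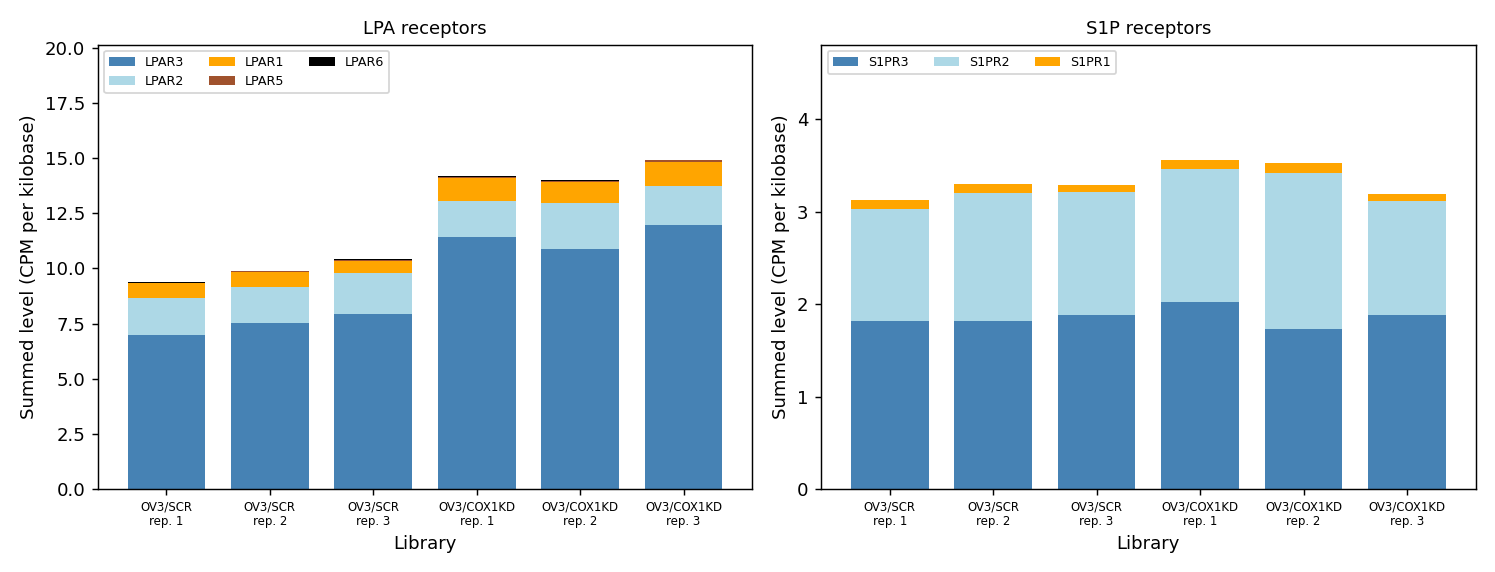
Summed level of the LPA receptors (left) and of S1PR1, S1PR2 and S1PR3 (right) in each library, in CPM per kilobase of exon, with each bar stacked by receptor. The LPA receptor bars reach 9.40 to 10.4 in OV3/SCR and 14.0 to 14.9 in OV3/COX1KD with LPAR3 as the main part of each, while the S1P receptor bars, drawn with the S1PR2 row that carries the symbol, overlap between conditions.

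The genes called changed were set beside their neighbours on the chromosome. Within 2 Mb of ENPP2, 14 other genes were tested, of which 8 were higher and 2 lower in OV3/COX1KD, with a median log2 fold change of 0.31, opposite in sign to ENPP2. Around SPHK1, 20 of 90 were higher and 24 lower (median -0.11). Around LPAR3, 5 of 22 were higher and 4 lower (median -0.10), and around LPAR1, 6 of 23 were higher and 2 lower (median 0.13). These counts stand beside 25.8% higher and 22.1% lower of all tested genes, and no difference from those shares was tested.

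The rest of the pathway was read from lists of 63 other genes, of which 61 were in the table and 56 were tested. In OV3/COX1KD 24 were higher and 16 lower, with a median log2 fold change of 0.086 against -0.0087 for all tested genes. Of all tested genes 25.8% were higher and 22.1% lower, and the counts of each list below stand beside the same shares. No difference of a list from those shares was tested. Of the other receptors, S1PR5, which couples to Gi and GNA12, had 116, 87 and 102 counts in OV3/SCR and 143, 121 and 119 in OV3/COX1KD (log2 fold change 0.36, edgeR FDR 0.0252, not passing). S1PR4, a receptor of blood cells, had at most 4 counts in any library. LPAR4 was not analysed here.

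Among 15 genes of LPA supply and breakdown, 13 were tested, of which 7 were higher, 2 lower and 4 did not pass (median log2 fold change 0.15). LIPH, a phospholipase that makes LPA from phosphatidic acid, had 77, 93 and 91 counts in OV3/SCR and 248, 210 and 256 in OV3/COX1KD. It rose from 3.33 to 9.28 CPM (log2 fold change 1.48, edgeR FDR 9.6e-10), opposite to the fall of ENPP2, an enzyme that makes LPA outside the cell. AGPAT9, a glycerol-3-phosphate acyltransferase that makes LPA inside the cell, fell from 5.06 to 1.88 CPM (log2 fold change -1.42, edgeR FDR 6.8e-08). AGPAT3, which acylates LPA, rose from 53.6 to 79.5 CPM (log2 fold change 0.57, edgeR FDR 1.3e-09). PPAP2B, a lipid phosphatase that removes the phosphate of LPA and S1P, rose from 11.2 to 17.3 CPM (log2 fold change 0.63, edgeR FDR 3.6e-07).

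The list of S1P supply, export and breakdown had 16 tested genes of 18 listed, of which 6 were higher, 3 lower and 7 did not pass (median log2 fold change 0.086). The phosphatase SGPP2, which returns S1P to sphingosine, had 87, 95 and 108 counts in OV3/SCR and 228, 242 and 262 in OV3/COX1KD. Its level rose from 3.70 to 9.52 CPM (log2 fold change 1.37, edgeR FDR 1.3e-09). SGPL1, the lyase that breaks S1P down irreversibly, rose from 181 to 268 CPM (log2 fold change 0.57, edgeR FDR 6.7e-11) and was named after its values were seen. ASAH1, the acid ceramidase that releases sphingosine, rose from 177 to 274 CPM (log2 fold change 0.64, edgeR FDR 2.8e-12), and CERS4, a ceramide synthase, rose from 38.1 to 60.4 CPM (log2 fold change 0.66, edgeR FDR 2.7e-10). MFSD2B, an S1P exporter of blood cells, had a log2 fold change of -0.68 (edgeR FDR 0.0044). That call was lost without OV3/SCR replicate 1 (edgeR FDR 0.0408), OV3/SCR replicate 3 (0.0105) or OV3/COX1KD replicate 1 (0.0232) and with DESeq2 (adjusted p 0.0156). The phosphatase SGPP1, at 28.2 and 29.7 CPM, did not pass the test. Among the genes named, SPHK1, SPHK2 and MFSD2B were lower, and SGPP2, SGPL1, ASAH1 and CERS4 were higher. SPHK2, SGPL1 and SGPP1 were named after their values were seen. The data hold no level of S1P itself, and an effect on it was not tested.

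All 15 genes of the list of G proteins and the signalling genes they act on were tested, of which 8 were higher, 4 lower and 3 did not pass (median log2 fold change 0.18). ARHGEF1, a guanine nucleotide exchange factor activated by GNA12 and GNA13, fell from 70.2 to 43.7 CPM (log2 fold change -0.68, edgeR FDR 9.1e-10). The G protein subunits GNAQ and GNAI2 rose from 51.8 to 73.8 and from 131 to 185 CPM (log2 fold changes 0.51 and 0.50, edgeR FDR 2.4e-09 and 4.0e-11).

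Of 12 genes known to be induced by LPA or S1P in epithelial cells, 11 were tested, of which 3 were higher and 7 lower, 1 and 4 of them by more than 2.5-fold (median log2 fold change -0.69). Of all tested genes 25.8% were higher and 22.1% lower, and 3.92% passed the 2.5-fold limit, 2.34% in the lower direction. The study had already reported IL8, IL6, CXCL1, PLAU and VEGFA as reduced in these same RNA-seq data, under other processes. The count of lower genes is therefore no new evidence, and a response to LPA or S1P was not tested. The cytokine genes were lower. IL8, a neutrophil chemoattractant, fell from 6.36 to 0.323 CPM (log2 fold change -4.27, edgeR FDR 8.2e-12), CXCL1 from 8.06 to 2.57 CPM (log2 fold change -1.65, edgeR FDR 6.9e-10) and LIF from 11.2 to 3.79 CPM (log2 fold change -1.57, edgeR FDR 2.5e-11). IL6 had 19, 27 and 22 counts in OV3/SCR and 1, 2 and 0 in OV3/COX1KD, where no library exceeded 3 counts, so that its plotted fold change depends on the prior count and is no bound. Among the immediate-early genes, EGR1 moved the other way and had 148, 167 and 134 counts in OV3/SCR and 730, 809 and 877 in OV3/COX1KD (log2 fold change 2.46, edgeR FDR 2.6e-15). FOS was also higher, with a log2 fold change of 1.01, and the YAP targets CYR61 and CTGF were called in opposite directions, with log2 fold changes of -0.69 and 0.15.

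**Figure D4:**
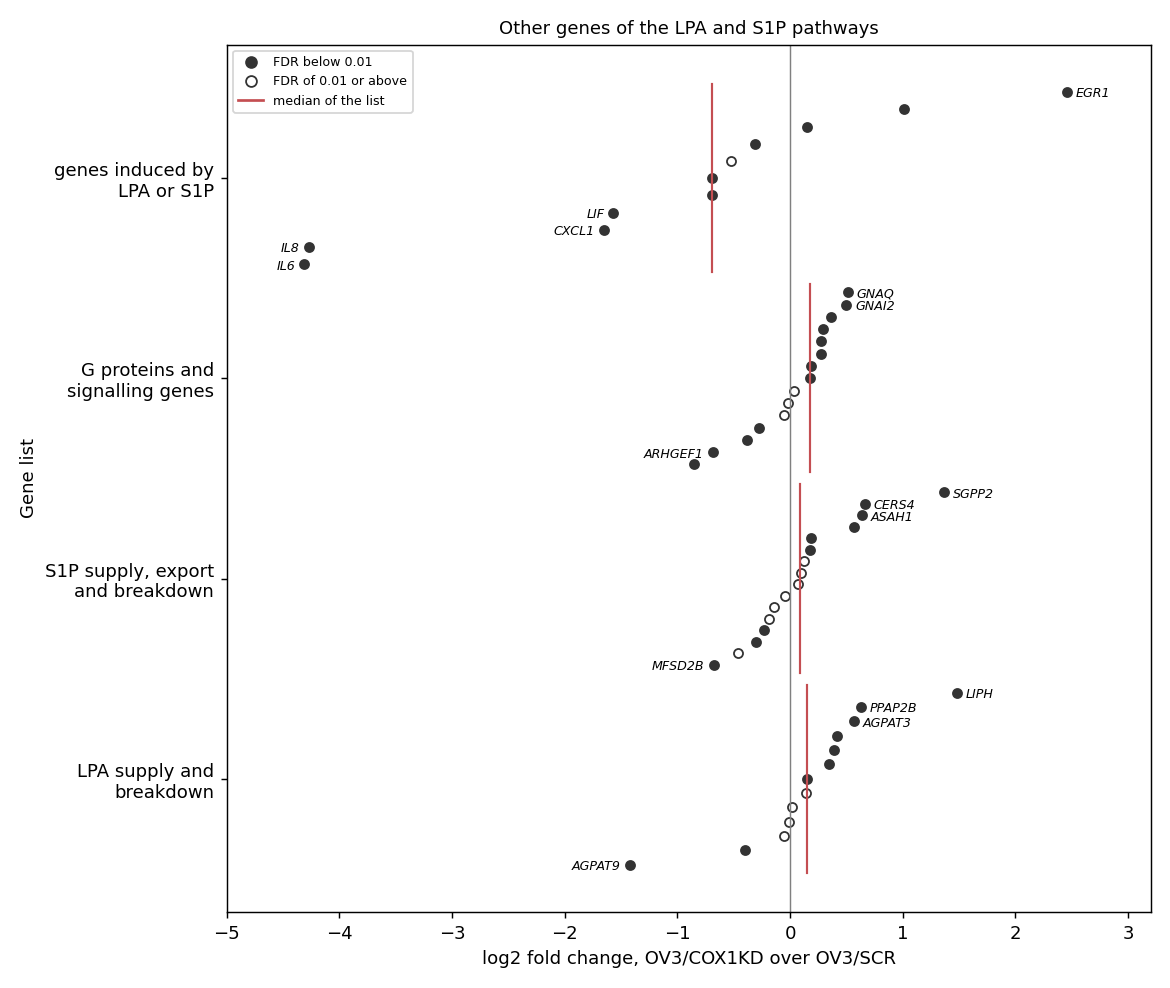
Log2 fold change of OV3/COX1KD over OV3/SCR for the tested genes of 4 lists of the LPA and S1P pathways (n = 3 libraries per condition, edgeR), with filled points for an FDR below 0.01 and a vertical line at the median of each list. The median of the genes induced by LPA or S1P lies at -0.69, with EGR1 to the right and IL8 and IL6 to the left, and those of the other 3 lists lie between 0.086 and 0.18.

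The labelled cell type was checked by its markers. All 8 markers of ovarian serous epithelium were expressed, at a summed 4657 to 4687 CPM in OV3/SCR and 6005 to 6182 in OV3/COX1KD. Of these, 6 were called higher and 2 lower, beside 25.8% and 22.1% of all tested genes. The largest rise was that of KRT8, from 1502 to 2360 CPM. The lower genes were PAX8, from 756 to 447 CPM (log2 fold change -0.76, edgeR FDR 4.3e-13), and KRT7, from 1041 to 942 CPM (log2 fold change -0.14, edgeR FDR 1.0e-04). The markers thus did not move together. For 4 endothelial genes, the normal users of S1PR1 and S1PR3, the sum was 1.57 to 2.51 CPM in OV3/SCR and 2.43 to 3.27 in OV3/COX1KD, and CDH5 had at most 3 counts in any library. Of the 2 tested, VWF, at 1.31 and 1.73 CPM, did not pass. TEK was called higher, from 0.570 to 1.13 CPM (log2 fold change 0.98, edgeR FDR 0.0058). For 7 stromal genes, the normal users of ENPP2 and LPAR1, the sum was 11.0 to 11.7 CPM in OV3/SCR and 6.72 to 7.47 in OV3/COX1KD, most of it COL1A1 at 10.1 and 5.93 CPM, with COL3A1 and LUM at 0 in every OV3/SCR library. For 5 blood cell genes it was 1.01 to 1.77 and 0.676 to 1.24 CPM. Of the 7 stromal genes 3 were tested, of which COL1A1 was called lower and 2 did not pass. The lower stromal sum was thus mainly that of COL1A1, while LPAR1 was higher. Whether stromal cells had a part in the ENPP2 result was not tested.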

How the data were processed

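RNA was sequenced from 3 libraries of OV3/SCR and 3 of OV3/COX1KD cells, with TruSeq libraries that appear to be unstranded. According to the study's methods and labels, the authors aligned reads to hg19 (GRCh37) with TopHat2 and counted reads per gene with HTSeq, and the deposited values are raw counts. The gene annotation and strand setting of the counting are not given in the sources used here. Groups and replicate numbers are those of the labels. That each condition was 1 clone is stated in the study.

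The test was that of edgeR 4.0.16 in R 4.3.3 (TMM scaling, filterByExpr, glmQLFit and glmQLFTest with condition as the only factor, Benjamini-Hochberg adjustment over all 17309 tested genes, threshold FDR 0.01). Library totals lay between 25291505 and 27391538 counts, TMM factors between 0.970 and 1.04, and the biological coefficient of variation was 3.21%. Libraries of a condition differed by 1.81 to 6.16 in chi-square per degree of freedom and were all counted as separate. A floor of 3 counts covers counting error only. Levels per kilobase used merged exons of GENCODE 44 lifted to GRCh37, which held 33556 of the 34811 genes. Promoter windows came from RefSeq. Sums and shares were compared by a two-sided exact permutation test.

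All 10 genes and PTGS1 were named. From each list, the 4 largest changes past the threshold were named among genes whose mean log2 CPM was not below 0, as were the 2 profiles nearest to a gene changed over 2.5-fold. One gene that this rule names is not reported here. Other named genes (SPHK2, SGPL1, SGPP1, IL6, FOS, CYR61, CTGF, S1PR4, S1PR5) were added from the lists after their values were seen. The genes, lists and tests were chosen with earlier results of these data known, so they are no independent evidence. Alternatives were RLE and total count scaling, other filters, DESeq2 1.42.0, glmTreat, the replicate block, leaving out each library and the longest transcript as length. Summing both S1PR2 rows was added after seeing the data.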

Additional observations from a re-analysis of the deposited data

How the results depend on the processing

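The calls of LPAR1, LPAR3, ENPP2 and SPHK1 held in the alternatives in which they were tested. Their log2 fold changes ranged from 0.63 to 0.75, 0.53 to 0.66, -2.11 to -1.90 and -1.35 to -0.76. The SPHK1 call held only narrowly, with an edgeR FDR of 0.0096 without OV3/COX1KD replicate 3 and 0.0093 without OV3/SCR replicate 1. For LPAR3 the highest FDR was 1.8e-06. With at least 10 counts in every library ENPP2 was not tested, because 1 library had 9, and 1 of the genes was lower. That filter left 172 genes higher and 228 lower by over 2.5-fold, and glmTreat left 82 and 130, against 274 and 405. Total count scaling, which moved the median of all genes from -0.0087 to -0.087, turned the uncalled values of S1PR1 (-0.0073) and S1PR3 (-0.049). So did leaving out OV3/COX1KD replicate 2 for S1PR1 (-0.016) and replicate 1 for S1PR3 (-0.024), with ranges over left-out libraries of -0.016 to 0.19 and -0.024 to 0.090. The cause was not tested. With the longest transcript as length, LPAR3 held 73.0% of the LPA receptor sum in OV3/SCR and 77.4% in OV3/COX1KD, and S1PR3 held 66.8% and 65.1% of the S1P receptor sum. With both S1PR2 rows summed S1PR3 held 49.2% and 45.3%, and S1PR2 led in OV3/COX1KD at merged exon lengths. The unnamed S1PR2 row passed without OV3/COX1KD replicate 2 (log2 fold change 0.61, edgeR FDR 0.0035). Same-numbered libraries did not deviate together (r = 0.0045, 0.042 and 0.0090 across genes), so the numbers were not taken as pairs. With the replicate block, 4437 genes were higher and 3796 lower, and no call among the 8 tested genes changed. Depth limits LPAR5, LPAR6 and S1PR1.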
